A study of Mus musculus with 21 samples.

Results

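The 35 genes described here build cholesterol and fatty acids, or control the transcription factors that switch those enzymes on. They were taken by gene symbol from a deposited table of 23250 genes. Of these, 20 form the sterol set, which runs from acetyl-CoA to cholesterol and includes the sterol carrier Stard4. A set of 5 regulators holds Srebf1, Srebf2, Scap, Insig1 and Insig2, and a set of 10 makes, elongates or desaturates fatty acids. All 35 had enough reads to be tested, among 13468 genes that did. The study asked what the soluble mannose receptor (MR, the product of Mrc1) does to macrophages. Bone marrow of mice labelled C57BL/6J was cultured in medium holding supernatant of a line that secretes GM-CSF, a growth factor for macrophages and dendritic cells, and the series describes the macrophages as MR-deficient in every group. FcMR, a fusion of a human IgG1 Fc part with the extracellular region of MR, or an isotype control was added for 4, 12 or 24 h, and further cells were collected untreated at 0 h. These 7 groups held 3 RNA-seq libraries each, 21 in all.

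Cells sense cholesterol in the membrane of the endoplasmic reticulum. When it is scarce, the escort protein Scap carries the membrane-bound precursors encoded by Srebf1 and Srebf2 to the Golgi, where proteases free a fragment that enters the nucleus and switches on the enzymes of sterol and fatty acid synthesis. When it is plentiful, the Insig proteins hold Scap back. Srebf2 mainly serves the sterol genes and Srebf1 mainly the fatty acid genes, and Insig1 is itself a target, so its transcript is widely read as a gauge of this pathway. In macrophages the same enzymes are also known to respond to signals from innate immune receptors.

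Each comparison used edgeR's quasi-likelihood test on all 21 libraries together, and "called" means a p-value below 0.05 after Benjamini-Hochberg adjustment over all 13468 genes. Levels are counts scaled to a common library total (CPM, after TMM scaling), and differences are log2 fold changes with their standard error (SE). FcMR was compared with the isotype control of the same time. The isotype groups were compared with the untreated group, a comparison in which time in culture and the control protein cannot be told apart, since untreated cells were collected at 0 h alone. The FcMR and isotype contrasts share the isotype libraries, so each is given by its own values and no likeness between them was computed. The labels do not say whether the 3 libraries of a group came from separate cultures or animals, so p-values measure the spread between libraries, which may be technical.

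Library totals ranged from 5532225 to 66729533 estimated counts, and the 35 genes drew between 34 and 38469 counts in a library. Mrc1 ranged from 0 to 0.589 CPM over all libraries and was too low to test. All 8 macrophage markers were present, with a summed level of 20550 to 35860 CPM. The summed level of 7 neutrophil markers was 1317 to 1541 CPM untreated and 173.3 to 201.8 CPM under isotype at 24 h. The libraries also differed in how strongly GC-rich transcripts were represented, even within a group: a tilt score, the mean log2 deviation of the 10% most GC-rich genes minus that of the 10% least GC-rich genes, ran from -1.60 to 0.83. The 3 FcMR libraries at 24 h were spread as well, at -0.33, -1.255 and 0.43. Scores also went partly with time. They were 0.79, 0.015 and 0.43 untreated. At 4 h they were -0.41, -0.22 and -0.56 under FcMR and -0.84, -1.60 and 0.63 under isotype. At 12 h they were -0.72, 0.72 and 0.82 under FcMR and 0.60, 0.815 and 0.83 under isotype. Isotype replicate 3 at 4 h and FcMR replicate 1 at 12 h lay farthest from the nearest other library of their group on this score. These are also the libraries whose titles break the order of the series, and both were kept as labelled. The macrophage marker Adgre1 had 1995 counts in this isotype library, beside 2010 and 1786 in the others of its group. It had 15351 in this FcMR library, beside 9971 and 18680. Whether titles were exchanged was not tested. Calls lost without either library out of title order are given with the gene. Genes called only when these libraries were left out are not named. Their counts for FcMR at 4 h and for the joint test over time are given at the end.

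Promoter sequence was available from RefSeq (GRCm38.p6) for 28 of the 35 genes. Fdps, Fdft1, Sqle, Stard4, Scd1, Scd2 and Fads1 were not matched. Windows of 250 bases before to 50 bases after the start were searched on both strands for 3 motifs known from SREBP targets: the sterol regulatory element TCACNCCAC (N is any base), the CCAAT box bound by NF-Y, and the E-box CACGTG. None of the 3 motifs contains another. CCAAT was found in 15 of 16 sterol genes (93.8%), 4 of 5 regulators and 4 of 7 fatty acid genes (57.1%), beside 41.1% of 27025 genes. TCACNCCAC was found in 1 of the 28, Hmgcs1, beside 1.44% of genes. CACGTG was found in 3 of 16 sterol genes (18.8%), 2 of 5 regulators and 0 of 7 fatty acid genes, beside 8.09% of genes. A match describes letters and not a bound site. Acat2, which fell by 24 h, was the sterol gene without CCAAT and matched none of the 3 motifs. The 6 stretches of 150 bases below are from genes picked by name and not by a rule. Motif matches are in capitals on either strand (ATTGG is CCAAT read on the other strand). The genes are Hmgcs1 (chr13:119690201-119690350, plus strand), Nsdhl (chrX:72918371-72918520, plus strand) and Hsd17b7 (chr1:169969242-169969391, minus strand), 3 enzymes that fell by 24 h; Insig1 (chr5:28071213-28071362, plus strand) and Insig2 (chr1:121332590-121332739, minus strand), which moved in opposite directions; and Me1 (chr9:86695954-86696103, minus strand), which rose most under FcMR. All lie upstream of the annotated gene.
Hmgcs1: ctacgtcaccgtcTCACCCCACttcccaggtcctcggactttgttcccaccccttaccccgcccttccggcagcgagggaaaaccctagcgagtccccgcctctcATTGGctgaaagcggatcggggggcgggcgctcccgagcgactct
Nsdhl: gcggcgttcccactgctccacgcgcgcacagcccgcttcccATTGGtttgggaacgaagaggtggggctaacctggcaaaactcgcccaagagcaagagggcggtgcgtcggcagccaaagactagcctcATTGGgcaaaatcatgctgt
Hsd17b7: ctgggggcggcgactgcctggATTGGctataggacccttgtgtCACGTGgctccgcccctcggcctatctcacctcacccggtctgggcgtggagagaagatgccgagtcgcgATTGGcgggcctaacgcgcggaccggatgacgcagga
Insig1: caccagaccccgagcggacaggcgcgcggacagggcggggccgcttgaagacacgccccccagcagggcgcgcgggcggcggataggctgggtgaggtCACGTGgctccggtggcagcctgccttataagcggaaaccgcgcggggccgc
Insig2: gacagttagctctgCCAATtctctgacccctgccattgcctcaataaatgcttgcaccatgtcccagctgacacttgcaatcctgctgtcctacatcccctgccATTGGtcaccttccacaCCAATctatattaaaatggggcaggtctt
Me1: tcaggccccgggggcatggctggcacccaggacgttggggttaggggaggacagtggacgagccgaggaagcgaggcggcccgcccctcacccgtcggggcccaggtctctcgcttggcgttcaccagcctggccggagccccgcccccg
Hmgcs1 holds 1 TCACNCCAC match and 1 CCAAT box, Nsdhl holds 2 CCAAT boxes, and Hsd17b7 holds 2 CCAAT boxes and 1 CACGTG. Insig1 holds 1 CACGTG, Insig2 holds 3 CCAAT boxes, and Me1 holds none of the 3 motifs in this stretch. Outside the printed stretches, the searched windows of Hmgcs1, Nsdhl, Hsd17b7 and Insig1 hold further CCAAT matches, as does another window of Me1.

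**Figure D1:**
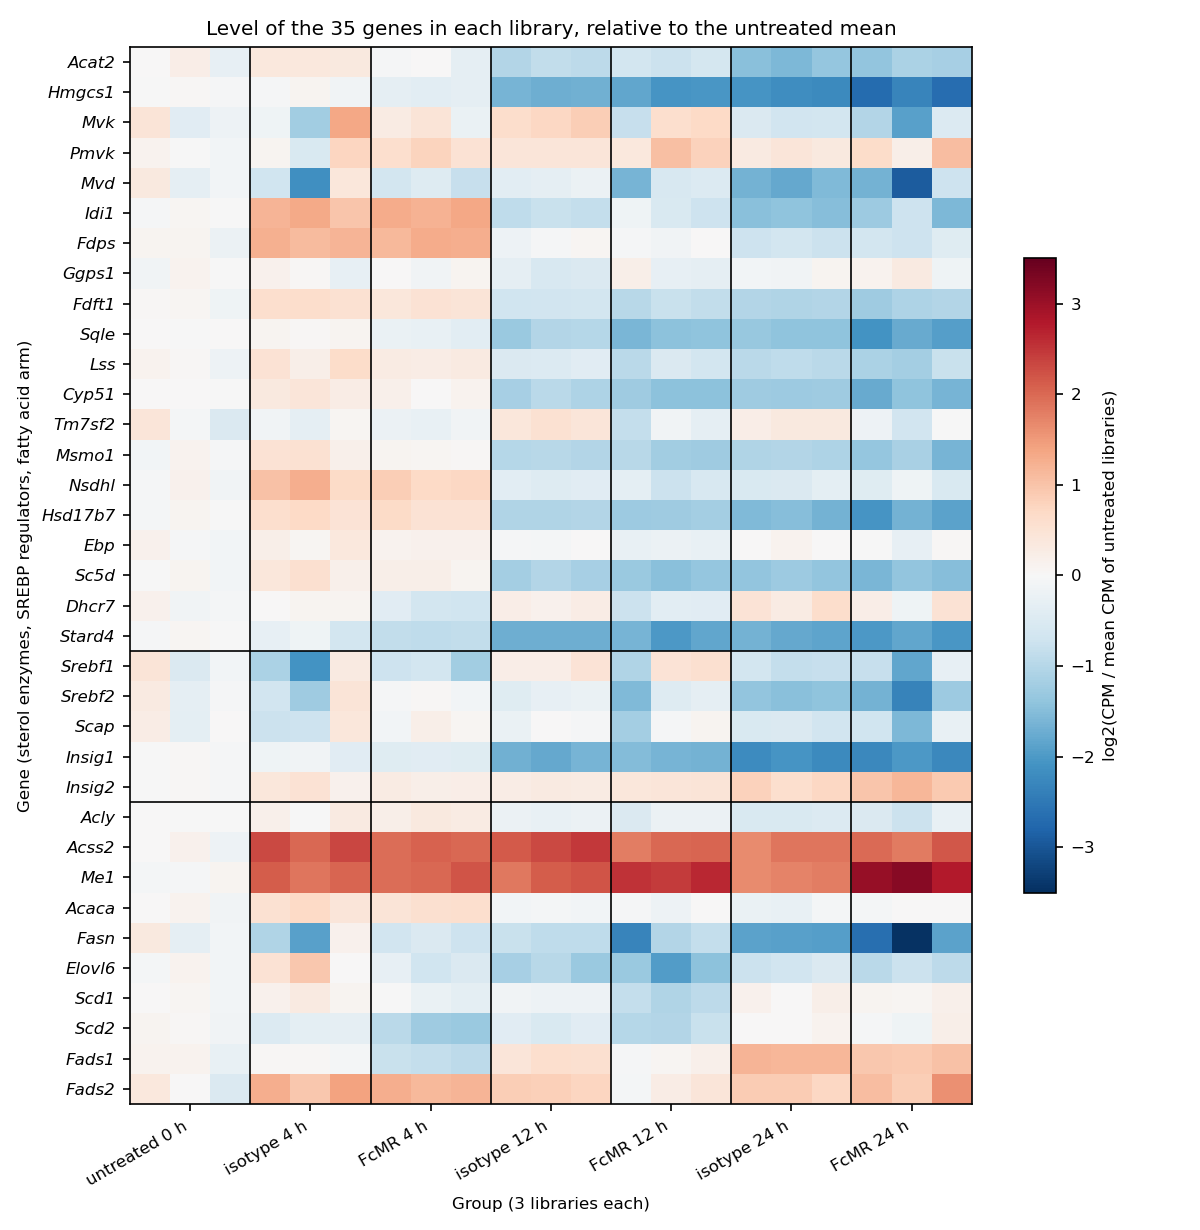
Heat map of log2 CPM relative to the mean of the untreated libraries for the 35 genes (rows, in 3 sets) in all 21 libraries (columns, by group). Most sterol genes are above the untreated level at 4 h and below it at 12 and 24 h, while Acss2 and Me1 stay above it in every treated library.

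Most sterol genes fell below their untreated level during culture. Under isotype at 4 h, 10 of the 20 were called higher than untreated and 1 lower, with a median log2 difference of 0.35 over the set. All genes tested had a median of -0.00034, and 35.6% of them were called, 20.4% higher and 15.2% lower. At 12 h, 0 of the 20 were higher and 13 were lower (median -0.56; all genes 0.03, with 41.6% called, 22% higher and 19.6% lower). At 24 h, 1 was higher and 14 were lower (median -1.05; all genes -0.04, with 42.2% called, 21.3% higher and 20.9% lower). Counting all 35 genes, 19, 21 and 25 were called at 4, 12 and 24 h, and 12 at 4 h without isotype replicate 1, where the share of all genes called was 27%. Across these times the neutrophil marker sum also fell, with 4, 7 and 7 of 7 markers called lower than untreated; their part in the sterol result was not tested. In bulk RNA, fewer cells of a type and less RNA per cell cannot be told apart. Of 5 immune response genes tested (Il6, Tnf, Il1b, Ifit1 and Irf7), 5, 4 and 3 were called higher than untreated under isotype at 4, 12 and 24 h. At these times 0, 0 and 1 were called lower, with medians of 3.87, 2.18 and 1.11. The part of this response in the sterol result was not tested.

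Hmgcs1, which makes HMG-CoA at the entry of the mevalonate pathway, was the sterol enzyme with the largest fall by 24 h. It stood at 735, 758 and 717 CPM in the untreated libraries, 716, 788 and 679 under isotype at 4 h, 239, 223 and 228 at 12 h and 176, 163 and 157 at 24 h. The 4 h libraries overlapped the untreated ones, and all later libraries lay below both groups. The log2 difference from untreated was -0.02 ± 0.10 (SE, adjusted p = 0.911) at 4 h, -1.68 ± 0.10 (SE, adjusted p = 3.45e-10) at 12 h and -2.16 ± 0.10 (SE, adjusted p = 2.33e-11) at 24 h. Sqle, squalene epoxidase, which adds the first oxygen to squalene, followed the same course. Its levels were 252, 247 and 250.4 CPM untreated, 265, 258 and 268 under isotype at 4 h, 102, 123 and 126 at 12 h and 98.8, 94.1 and 93.97 at 24 h. The 12 and 24 h libraries were all below the untreated ones, with differences of -1.09 ± 0.09 (SE, adjusted p = 1.63e-08) and -1.38 ± 0.09 (SE, adjusted p = 9.09e-10).

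Idi1, which isomerises the isoprenoid building block, rose before it fell. It was at 301, 328 and 308 CPM untreated, 719, 787 and 616 under isotype at 4 h, 169, 181 and 174 at 12 h and 113, 119 and 110.4 at 24 h. No 4 h library was as low as an untreated one and no later library as high. The difference from untreated was 1.18 ± 0.17 (SE, adjusted p = 2.49e-05) at 4 h, -0.84 ± 0.17 (SE, adjusted p = 0.000584) at 12 h and -1.45 ± 0.17 (SE, adjusted p = 2e-06) at 24 h, so its fall from 4 to 24 h under isotype, -2.63 ± 0.18 (SE, adjusted p = 3.04e-09), was the largest of the 35 genes. Fdps, which joins these units to farnesyl diphosphate, was at 187, 187 and 150.2 CPM untreated, 416, 373 and 398 at 4 h, 156, 169.9 and 183 at 12 h and 106, 111 and 104 at 24 h. Its 4 h difference was 1.18 ± 0.10 (SE, adjusted p = 2.55e-08) and its 24 h difference -0.70 ± 0.10 (SE, adjusted p = 1.1e-05). Fdps has near-identical copies in the genome that can share its reads, so its level is uncertain.

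Several enzymes of the later steps, in which methyl groups and double bonds are rearranged, rose at 4 h and fell by 12 h as well. Nsdhl, which helps to remove the methyl groups, was at 36.05, 41.2 and 34 CPM untreated and 76.1, 89.8 and 59.2 under isotype at 4 h, a difference of 1.01 ± 0.14 (SE, adjusted p = 1.58e-05). It was at 28.6, 27.1 and 28.4 at 12 h and 25.8, 26.3 and 29.1 at 24 h, all below the untreated libraries, with differences of -0.40 and -0.46. Both of these calls rested on few libraries: at 24 h the adjusted p was 0.0684, 0.0866 and 0.0792 without untreated replicate 2, isotype replicate 1 or isotype replicate 2, and at 12 h it was 0.0836 to 0.125 without untreated replicate 2 or any of the 3 isotype libraries. Hsd17b7, a keto-reductase of the same complex, was at 74.5, 82.4 and 76.3 CPM untreated, 118, 126 and 109 at 4 h, 37.4, 37.7 and 38.5 at 12 h and 26.7, 27.9 and 24.6 at 24 h. Its differences were 0.59 ± 0.09 (SE, adjusted p = 4.89e-05), -1.04 ± 0.09 (SE, adjusted p = 5.44e-08) and -1.56 ± 0.09 (SE, adjusted p = 4.68e-10), with no overlap between any of these groups and the untreated one. Sc5d, a desaturase near the end of the pathway, was at 132, 143 and 125 CPM untreated and 177, 195 and 150.4, 58.4, 66.2 and 59.6 and 51.5, 55.6 and 50.98 at the 3 times. It differed by -1.12 ± 0.09 (SE, adjusted p = 2.44e-08) at 12 h and -1.34 ± 0.09 (SE, adjusted p = 3.12e-09) at 24 h. Its 4 h call (0.38) was lost after correction for GC content (adjusted p = 0.0674 and 0.197 by its 2 forms) and without isotype replicate 2 (0.0518).

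Cyp51, the demethylase of lanosterol, was at 296, 298 and 291 CPM untreated and 374, 399 and 352, 132, 153 and 139 and 124, 123 and 125 at the 3 times. The rise at 4 h was 0.35 ± 0.09 (SE, adjusted p = 0.00564) and the fall at 24 h -1.25 ± 0.09 (SE, adjusted p = 4.97e-09). The 4 h call was lost without the filter on low counts (0.24, adjusted p = 0.0925), with the authors' scaling (0.14, 0.365) and in a fit of the compared libraries alone (0.35, 0.0561). Fdft1 (squalene synthase), Lss (lanosterol synthase) and Msmo1 (a methyl oxidase) were also called higher at 4 h, by 0.58, 0.46 and 0.41, and lower at 24 h, by -1.03, -0.93 and -1.06. The 4 h calls of Lss (adjusted p = 0.0509 without untreated replicate 3) and Msmo1 (0.0564 and 0.0696 without isotype replicate 1 or 2) rested on single libraries. Acat2, which condenses acetyl-CoA at the first step, was at 45.6, 52.9 and 36.5 CPM untreated and 58.02, 57.9 and 56.9, 21.9, 24.8 and 23.8 and 16.4, 15.01 and 17.6 at the 3 times. It fell by 24 h (-1.46 ± 0.12, SE, adjusted p = 3.34e-08). Its rise at 4 h (0.35) was lost without untreated replicate 1 or 3 or isotype replicate 1 or 2, with 0.22 and an adjusted p of 0.149 without untreated replicate 3.

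Stard4, which carries cholesterol between membranes, did not share the 4 h rise. It was at 163, 178 and 166 CPM untreated, 139, 154 and 108 under isotype at 4 h, 51.5, 52.1 and 51.2 at 12 h and 53.2, 49.1 and 47.4 at 24 h. All 3 groups lay below the untreated one, with differences of -0.34 ± 0.11 (SE, adjusted p = 0.0242), -1.71 ± 0.11 (SE, adjusted p = 1.72e-09) and -1.76 ± 0.12 (SE, adjusted p = 1.38e-09). The 4 h value was -0.20 without isotype replicate 3 (adjusted p = 0.113), and the call was also lost without untreated replicate 2 (0.0809) or isotype replicate 1 (0.0514).

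Mvd, Mvk, Pmvk, Tm7sf2, Ggps1, Ebp and Dhcr7 complete the sterol set. Mvd, which decarboxylates mevalonate diphosphate, was called lower at 24 h (-1.66 ± 0.50, SE, adjusted p = 0.0129), from 138, 87.4 and 103 CPM untreated to 34.6, 31.9 and 37.7. Its transcript is GC-rich, and its 3 isotype libraries at 4 h, 67.2, 24.7 and 144 CPM, followed their own tilt scores of -0.84, -1.60 and 0.63. Ggps1, which makes geranylgeranyl diphosphate, was called lower at 12 h alone (-0.45 ± 0.15, SE, adjusted p = 0.0231), a call lost without untreated replicate 2 (adjusted p = 0.1) or isotype replicate 2 (0.103) or 3 (0.099). Dhcr7, the last reductase on the way to cholesterol, was the sterol gene called higher at 24 h. It went from 39.6, 32.8 and 34.2 CPM untreated to 49.6, 43.7 and 54.6, a difference of 0.47 ± 0.14 (SE, adjusted p = 0.0131), with an adjusted p of 0.057 without untreated replicate 2. Mvk, Pmvk, Tm7sf2 and Ebp were not called at any time against untreated. After correction for GC content Pmvk, the kinase that follows Mvk, was called higher at all 3 times by both forms (0.53, 0.27 and 0.55 by the median over transcripts).

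**Figure D2:**
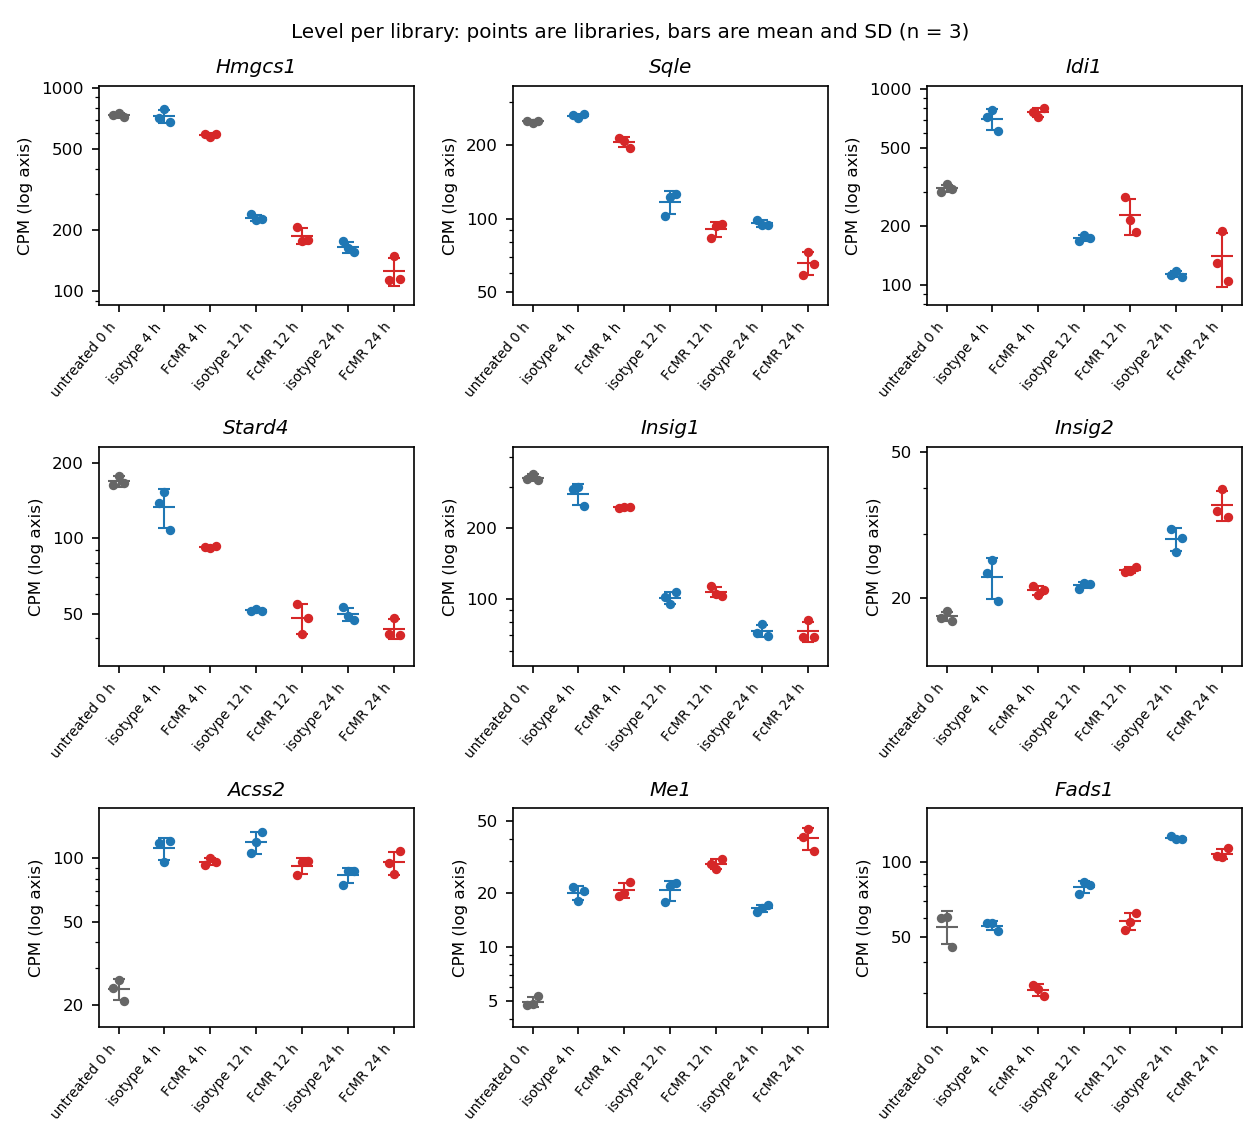
CPM (log axis) of 9 genes in each of the 7 groups, with points for libraries and bars for the mean and SD (n = 3). Hmgcs1, Sqle, Idi1, Stard4 and Insig1 are low at 12 and 24 h under both proteins, Insig2, Acss2, Me1 and Fads1 are above the untreated level at 24 h, and Me1 separates FcMR from isotype most at 24 h.

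The same decline was seen between 4 and 24 h without the untreated group. Under isotype, 1 of 20 sterol genes was called higher at 24 h than at 4 h and 13 lower (median -1.46; all genes -0.06, with 39% called, 17% higher and 22.1% lower). Under FcMR, 1 was higher and 14 lower (median -1.30; all genes 0.01, with 49.6% called, 25.9% higher and 23.7% lower). The neutrophil markers fell alongside, with 7 of 7 called lower under each protein. Idi1, Hsd17b7 and Hmgcs1 had the largest falls in both, at -2.43, -2.41 and -2.22 under FcMR and -2.63, -2.15 and -2.14 under isotype. Dhcr7 was the gene called higher in each, by 0.40 ± 0.15 (SE) under isotype and 0.79 ± 0.15 under FcMR. The isotype value of Dhcr7 was not called without isotype 4 h replicate 1 (adjusted p = 0.0764) or isotype 24 h replicate 1 (0.0565) or 3 (0.0946). Mvk fell under FcMR (-1.30 ± 0.50, SE, adjusted p = 0.0391), a call lost without replicate 1 or 2 of either FcMR group, with -0.93 and an adjusted p of 0.171 without FcMR 24 h replicate 2.

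FcMR left some sterol enzymes below their isotype level, by small amounts. At 4 h, 0 of 20 were called higher and 6 lower (median -0.18; all genes -0.07), where 17.7% of all genes were called, 8.62% above isotype and 9.13% below it. At 12 h, 0 were higher and 5 lower (median -0.21; all genes -0.02, with 16.1% called, 8.61% higher and 7.49% lower). At 24 h, 0 were higher and 4 lower (median -0.14; all genes 0.0064, with 20.9% called, 11.4% higher and 9.44% lower). Hmgcs1 and Sqle were called lower at all 3 times and Cyp51 at 12 and 24 h. Acat2, Msmo1, Dhcr7 and Stard4 completed the 4 h calls, Tm7sf2 and Dhcr7 those at 12 h, and Hsd17b7 those at 24 h. Over all 35 genes 10, 11 and 6 were called, and these counts moved with single libraries: 5 and 6 were called at 4 h without FcMR replicate 3 or isotype replicate 2 (12.1% and 13.3% of all genes), and 16 without isotype replicate 3 (22.5%). At 12 h, 7 were called without FcMR replicate 2 or isotype replicate 2 or 3 (13.1%, 12.4% and 12.5%), and at 24 h 3 were called without FcMR replicate 1 (16.7%). In fits of the 6 compared libraries alone, 3, 7 and 2 were called, beside 7.38%, 13.5% and 16.3% of all genes in those fits. Of 6 dendritic cell markers, Ccr7, a chemokine receptor of migrating dendritic cells, was called higher under FcMR at 4 h (0.55 ± 0.14, SE, adjusted p = 0.0116) and 24 h (0.76 ± 0.14, SE, adjusted p = 0.000656), and Zbtb46, a transcription factor of these cells, at 12 h (0.38) and 24 h (0.69). Flt3 and Clec9a were called lower at 12 h (-0.57 and -1.52), and the other markers were not called. The sum of the 6 was mostly Ccr7: it was 713.9 to 764.4 CPM under FcMR at 24 h against 421.9 to 488 under isotype, where Ccr7 alone was at 675, 639 and 702 against 369, 429 and 389. At 4 h the sum was 455.8 to 572.7 against 301.2 to 437, and at 12 h 596.5 to 758.6 against 546.1 to 620.5. Cd209a had 0, 1 and 1 counts under FcMR and 1 in each isotype library at 24 h. The part of these markers in the sterol result was not tested. At 24 h the macrophage marker sum was 25890 to 27780 CPM under FcMR and 31640 to 35860 under isotype, with 1 of 8 markers called higher and 3 lower. That sum was mostly Lyz2. The log2 differences of the 8 markers ran from -1.16 (Fcgr1) to 0.85 (Adgre1).

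Sqle and Hmgcs1 were the sterol enzymes called under FcMR at every time. Sqle under FcMR was at 214, 209 and 195 CPM at 4 h, 83.1, 93.2 and 94.8 at 12 h and 58.9, 72.98 and 65.3 at 24 h, each group wholly below its isotype group. The log2 differences were -0.36 ± 0.09 (SE, adjusted p = 0.0075), -0.37 ± 0.09 (SE, adjusted p = 0.00518) and -0.54 ± 0.09 (SE, adjusted p = 0.000191), folds of 0.781, 0.771 and 0.688. The 4 h call was lost without FcMR replicate 3 (-0.27, adjusted p = 0.0831), and the 12 and 24 h calls held without any 1 of their 6 libraries. In a fit of the compared libraries alone, the adjusted p was 0.0517 at 4 h and 0.0661 at 12 h. Hmgcs1 was at 597, 575 and 596 CPM under FcMR at 4 h, 208, 177 and 178 at 12 h and 114, 149.5 and 116 at 24 h, again with no overlap with isotype. Its differences were -0.30 ± 0.10 (SE, adjusted p = 0.037), -0.30 ± 0.10 (SE, adjusted p = 0.0464) and -0.39 ± 0.10 (SE, adjusted p = 0.00783). More of the Hmgcs1 calls rested on single libraries. The 4 h call was lost without any library but isotype replicate 3 (adjusted p = 0.102 to 0.229) and after either correction for GC content (-0.15, adjusted p = 0.0929, and -0.16, 0.0637). The 12 h call was lost without any library but FcMR replicate 1 (0.0839 to 0.169), and the 24 h call without FcMR replicate 1 (0.0655) or isotype replicate 1 (0.0609).

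Cyp51 was at 124, 108 and 109 CPM under FcMR at 12 h and 86.7, 112 and 94.8 at 24 h, below every isotype library of the same time. The differences were -0.31 ± 0.09 (SE, adjusted p = 0.0233) and -0.34 ± 0.09 (SE, adjusted p = 0.0109). The 12 h call was lost without FcMR replicate 2 or 3 or isotype replicate 2 or 3 (adjusted p = 0.059 to 0.132), and the 24 h call without FcMR replicate 1 (0.0933). At 4 h, FcMR libraries of 335, 299 and 319.9 CPM gave -0.24 ± 0.09 (SE, adjusted p = 0.0754). Hsd17b7 was at 18.7, 24.5 and 21.1 CPM under FcMR at 24 h, a difference of -0.29 ± 0.09 (SE, adjusted p = 0.0355), which was lost without FcMR replicate 1 or 3 or isotype replicate 1 or 2 (0.0948 to 0.233).

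Dhcr7 differed most among the sterol genes at 4 h. It was at 27.1, 22.8 and 21.99 CPM under FcMR and 35.6, 38.2 and 38.1 under isotype at 4 h, and at 21.1, 27.4 and 26.8 against 41.8, 39.6 and 42.6 at 12 h. The groups did not overlap at either time, and the differences of -0.63 ± 0.15 (SE, adjusted p = 0.00559) and -0.72 ± 0.14 (SE, adjusted p = 0.00161) stayed called without any 1 library. At 24 h the FcMR libraries were at 42.1, 32.3 and 50.8 CPM and overlapped those of isotype (-0.25 ± 0.14, SE, adjusted p = 0.269). Stard4 was at 92.1, 91.9 and 93.2 CPM under FcMR at 4 h, below every isotype library, a difference of -0.53 ± 0.11 (SE, adjusted p = 0.0029) that also held without any 1 library but not in a fit of the compared libraries alone (adjusted p = 0.0733) or with the authors' scaling (-0.28, 0.0845). At 12 and 24 h its FcMR levels of 54.5, 41.6 and 47.9 and 41.6, 48.3 and 41.1 CPM gave -0.10 ± 0.11 (SE, adjusted p = 0.66) and -0.19 ± 0.11 (SE, adjusted p = 0.292).

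Acat2 was the sterol gene whose FcMR difference itself varied with time (joint test over the 3 times, adjusted p = 0.00991). With FcMR, Acat2 was at 43.6, 45.3 and 36.3 CPM at 4 h, 28.7, 26.9 and 29.4 at 12 h and 17.4, 20.8 and 19.99 at 24 h, so that it lay below isotype at 4 h, above it at 12 h and across its range at 24 h. The differences were -0.46 ± 0.12 (SE, adjusted p = 0.0115), 0.27 ± 0.12 (SE, adjusted p = 0.145) and 0.25 ± 0.12 (SE, adjusted p = 0.182). Without FcMR 4 h replicate 3 the joint adjusted p was 0.0695 and the 4 h call was lost (-0.32, adjusted p = 0.137), as it was without isotype replicate 1 (0.0514) or 2 (0.0543). A near-identical neighbouring gene can share reads with Acat2. Msmo1 was called lower at 4 h (-0.33 ± 0.11, SE, adjusted p = 0.0486), a call lost without any library but isotype replicate 3 (0.119 to 0.276). Tm7sf2, a sterol reductase of low level, was at 4.33, 7.07 and 6.22 CPM under FcMR and 10.1, 11 and 10.3 under isotype at 12 h. Its difference of -0.83 ± 0.21 (SE, adjusted p = 0.00969) was lost without FcMR replicate 1, 1 of the 2 libraries with titles out of order (-0.66, adjusted p = 0.0549).

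Idi1 stood on the other side of isotype. Its FcMR libraries were at 766, 722 and 800.3 CPM at 4 h, 282, 215 and 188 at 12 h and 129.7, 189.8 and 105 at 24 h. At 4 h and 24 h the groups overlapped and at 12 h all FcMR libraries were higher, with differences of 0.11 ± 0.17 (SE, adjusted p = 0.725), 0.38 ± 0.17 (SE, adjusted p = 0.143) and 0.32 ± 0.17 (SE, adjusted p = 0.216). After correction for GC content Idi1 was called higher at 4 h (0.28 ± 0.07, SE, adjusted p = 0.00564) and 12 h (0.27 ± 0.07, adjusted p = 0.00872). Pmvk was called higher at all 3 times in that fit (0.41, 0.52 and 0.46), against 0.43, 0.34 and 0.31 without the correction, none of which was called. Both genes passed by either form of the correction. With the median form, the sterol set gave 2 higher and 5 lower at 4 h, 3 and 8 at 12 h and 1 and 7 at 24 h, while the share of all genes called also rose, to 27.9%, 25% and 30%. Mvk, Mvd, Fdps, Ggps1, Fdft1, Lss, Nsdhl, Ebp and Sc5d were not called at any time without the correction.

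**Figure D3:**
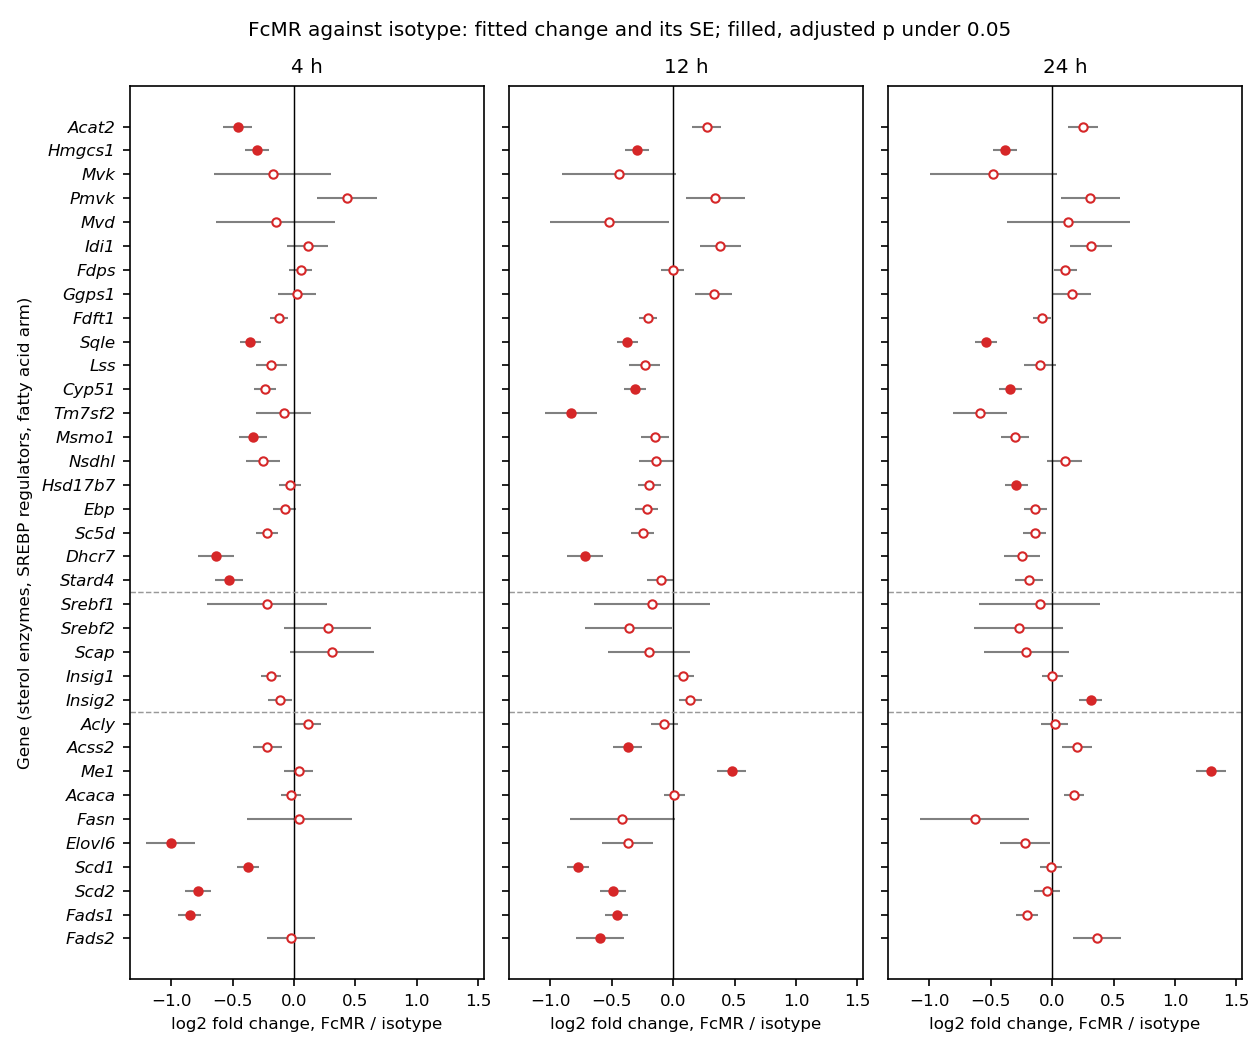
FcMR against isotype for the 35 genes at 4, 12 and 24 h: log2 fold change (x axis) with its SE, filled points for genes called at an adjusted p under 0.05. The sterol calls all lie left of 0 and reach -0.83, the fatty acid calls at 4 h reach -1.01, and Me1 at 24 h lies at 1.29.

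The regulators split between Insig1 and Insig2, which encode the paired retention proteins. Against untreated, 1 of 5 was called higher and 1 lower at 4 and at 12 h, and 1 higher and 2 lower at 24 h, beside the 35.6%, 41.6% and 42.2% of all genes called. After correction by median GC content, 1 was higher and 2 lower at 12 h, and 1 and 3 by the longest coding transcript. The genes added at 12 h were among Srebf1, Srebf2 and Scap. By both forms 0 were higher and 1 lower at 4 h, and the 24 h counts were unchanged. All genes called were then 43.4% and 44.1%, 53% and 53.3%, and 54.2% and 54.6%. Insig1 was at 322, 339.6 and 319.8 CPM untreated, 294, 298 and 247 under isotype at 4 h, 102, 94.9 and 107 at 12 h and 71.8, 78.2 and 69.4 at 24 h. All isotype libraries lay below all untreated ones, with differences of -0.23 ± 0.08 (SE, adjusted p = 0.0436), -1.69 ± 0.09 (SE, adjusted p = 4.94e-11) and -2.16 ± 0.09 (SE, adjusted p = 4.44e-12). The 24 h value of Insig1 equalled that of Hmgcs1 to 2 decimals (-2.16). The small 4 h difference was -0.14 without isotype replicate 3 (adjusted p = 0.179) and was lost without any library but isotype replicate 2. Under FcMR, Insig1 was at 244, 247 and 244 CPM at 4 h, 114, 105 and 103 at 12 h and 68.9, 81.1 and 68.9 at 24 h. The FcMR libraries lay just below those of isotype at 4 h and overlapped them later, and the gene was not called: -0.19 ± 0.08 (SE, adjusted p = 0.139) at 4 h, 0.08 ± 0.08 (SE, adjusted p = 0.62) at 12 h and -0.00 ± 0.09 (SE, adjusted p = 0.998) at 24 h, where the 95% interval was -0.18 to 0.18.

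Insig2 moved the other way. It was at 17.7, 18.4 and 17.3 CPM untreated, 23.4, 25.4 and 19.6 under isotype at 4 h, 21.2, 22 and 21.9 at 12 h and 30.9, 26.7 and 29.2 at 24 h. The later libraries were all above the untreated ones, with differences of 0.35 ± 0.10 (SE, adjusted p = 0.00863), 0.28 ± 0.09 (SE, adjusted p = 0.0226) and 0.70 ± 0.10 (SE, adjusted p = 1.15e-05). The 4 h call was lost after correction for GC content (adjusted p = 0.0695 and 0.0528) and without isotype replicate 1 (0.0536) or 2 (0.0989), and the 12 h call without untreated replicate 1 (0.0539) or 3 (0.0691) or isotype replicate 3 (0.0602). With the authors' scaling the 24 h value was 0.55 (0.0572). Insig2 was higher still under FcMR at 24 h, at 34.6, 39.8 and 33.3 CPM, a difference of 0.31 ± 0.09 (SE, adjusted p = 0.0222). That was the only regulator called against isotype at any time without correction for GC content. The call was lost without FcMR replicate 2 (0.24, adjusted p = 0.126) or isotype replicate 2 (0.128) or 3 (0.0671). At 4 and 12 h its FcMR libraries were at 21.6, 20.3 and 21.1 and 23.6, 23.7 and 24.3 CPM (-0.12 ± 0.10, SE, adjusted p = 0.472 and 0.14 ± 0.09, SE, adjusted p = 0.402).

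Srebf2 and Srebf1 encode the transcription factors themselves, and both have GC-rich transcripts. Srebf2 was at 304, 197 and 237 CPM untreated, 154, 103 and 338 under isotype at 4 h, 182, 202 and 209.9 at 12 h and 94.3, 89.1 and 92.7 at 24 h. The 24 h libraries were all below the untreated ones (-1.42 ± 0.36, SE, adjusted p = 0.00423), and the 4 h libraries spread from 103 to 338 in the order of their tilt scores. Under FcMR it was at 238, 251 and 231 CPM at 4 h, 83.5, 179 and 199 at 12 h and 78.4, 48.5 and 103 at 24 h. The groups overlapped at each time, with differences of 0.27 ± 0.36 (SE, adjusted p = 0.67), -0.36 ± 0.35 (SE, adjusted p = 0.606) and -0.27 ± 0.36 (SE, adjusted p = 0.674). The fall from isotype 4 h to 24 h (-1.11 ± 0.36, SE, adjusted p = 0.0213) was -0.45 without isotype 4 h replicate 3 (adjusted p = 0.259) and was not called without any 1 of the 24 h libraries (0.0639 to 0.0742). After correction for GC content Srebf2 was called higher under FcMR at 4 h (0.34 ± 0.10, SE, adjusted p = 0.0125).

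Srebf1 was at 71.5, 36.8 and 49.7 CPM untreated and 24.3, 12.3 and 65.8, 62.4, 62.1 and 73.7 and 33.9, 29.4 and 30.3 under isotype at the 3 times. Its levels with FcMR were 31.7, 33.8 and 22.5, 25.5, 73.3 and 77.3 and 30.2, 15.1 and 43.3. The isotype libraries at 4 h alone spanned 12.3 to 65.8 CPM, and no comparison was called without correction for GC content: -0.75 ± 0.49 (SE, adjusted p = 0.233) against untreated at 24 h and -0.22 ± 0.49 (SE, adjusted p = 0.822), -0.17 ± 0.47 (SE, adjusted p = 0.89) and -0.10 ± 0.49 (SE, adjusted p = 0.929) against isotype. Scap, the escort protein, was likewise not called in any of the 6 comparisons without that correction, with levels from 9.52 to 37.3 CPM.

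**Figure D4:**
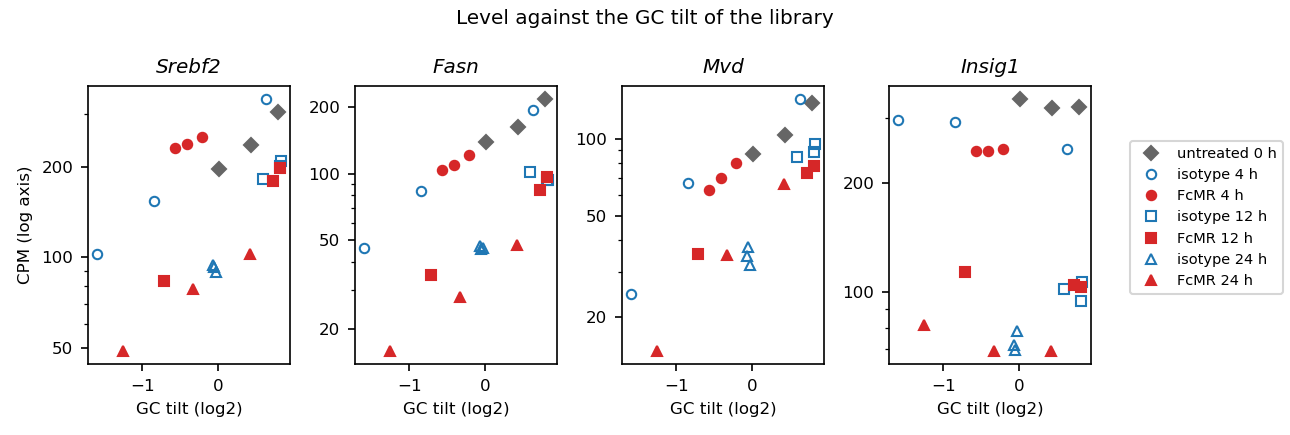
CPM (y axis) of Srebf2, Fasn, Mvd and Insig1 against the GC tilt score of each of the 21 libraries (x axis), coloured by group. Srebf2, Fasn and Mvd, whose transcripts are GC-rich, follow the order of the scores within each group except isotype at 24 h, where the scores span -0.07 to -0.03, and, for Fasn, isotype at 12 h; in the isotype libraries at 4 h Srebf2 runs from 103 to 338.

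The fatty acid genes did not move as a block. Against untreated, 5 of 10 rose and 1 fell at 4 h, 4 rose and 2 fell at 12 h, and 4 rose and 3 fell at 24 h, with medians of 0.36, -0.12 and 0.09. Of all genes, 35.6%, 41.6% and 42.2% were called at these times, with medians of -0.00034, 0.03 and -0.04. Acss2, which makes acetyl-CoA from acetate, and Me1, the malic enzyme that supplies NADPH, were the genes with the largest rise. Acss2 was at 24.2, 26.4 and 20.9 CPM untreated, 118, 96.3 and 120.3 under isotype at 4 h, 105, 119 and 133 at 12 h and 74.9, 86.5 and 87.3 at 24 h. Every isotype library was above every untreated one, by 2.23 ± 0.13 (SE, adjusted p = 2.09e-10), 2.32 ± 0.13 (SE, adjusted p = 1.07e-10) and 1.79 ± 0.12 (SE, adjusted p = 2.71e-09). Under FcMR its levels were 92.6, 100.1 and 95.6 CPM at 4 h, 83.2, 96.04 and 97.2 at 12 h and 94.8, 83.9 and 108 at 24 h. The differences from isotype were -0.22 ± 0.12 (SE, adjusted p = 0.235), -0.37 ± 0.12 (SE, adjusted p = 0.0404) and 0.20 ± 0.12 (SE, adjusted p = 0.279). The 12 h call was lost without any library but isotype replicate 1 (adjusted p = 0.0553 to 0.198).

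Me1 gave the largest FcMR difference of the 35 genes at 24 h. It was at 4.76, 4.83 and 5.31 CPM untreated, 21.5, 18.04 and 20.4 under isotype at 4 h, 17.7, 21.7 and 22.7 at 12 h and 15.6, 16.5 and 17.1 at 24 h, and all isotype libraries were above the untreated ones (2.01 ± 0.13, SE, adjusted p = 1.29e-09, 2.06 ± 0.13, SE, adjusted p = 6.14e-10 and 1.72 ± 0.13, SE, adjusted p = 7.93e-09). FcMR libraries held 19.2, 19.8 and 22.9 CPM at 4 h, 28.8, 27.1 and 30.7 at 12 h and 40.8, 45.5 and 34.1 at 24 h. The groups overlapped at 4 h (0.04 ± 0.12, SE, adjusted p = 0.953) and were apart at 12 h (0.48 ± 0.12, SE, adjusted p = 0.0077) and 24 h (1.29 ± 0.12, SE, adjusted p = 3.31e-07). At 24 h this was a 2.45-fold level, with a 95% interval of 1.04 to 1.55 on the log2 scale. The FcMR difference changed with time (joint test, adjusted p = 0.000294). Without isotype 12 h replicate 1 the 12 h difference was 0.37 (adjusted p = 0.0547), and the 24 h call held without any 1 library.

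Scd1, Scd2 and Fads1, desaturases that put double bonds into fatty acids, were called lower under FcMR at 4 and 12 h, and Fads2, another desaturase, at 12 h alone. The set had 0 called higher and 4 lower at 4 h, 1 higher and 5 lower at 12 h, and 1 higher and 0 lower at 24 h, with medians of -0.12, -0.39 and 0.0052. Of all genes, 17.7%, 16.1% and 20.9% were called at these times. With the correction by median GC content, 0 were higher and 3 lower at 4 h, 1 and 4 at 12 h and 1 and 1 at 24 h. By the longest coding transcript these counts were 0 and 4, 1 and 5, and 3 and 0. All genes called were then 27.9%, 25% and 30% by the first form and 28.3%, 26.1% and 30.8% by the second. Scd2 was at 399.7, 325 and 309.7 CPM under FcMR and 553, 607 and 622 under isotype at 4 h, 383, 380.2 and 444 and 579.6, 533 and 583 at 12 h, and 742, 696 and 880.2 and 774, 774 and 842 at 24 h. The groups were apart at 4 and 12 h and overlapped at 24 h: -0.79 ± 0.11 (SE, adjusted p = 5.5e-05), -0.49 ± 0.11 (SE, adjusted p = 0.00325) and -0.04 ± 0.11 (SE, adjusted p = 0.839). Against untreated libraries of 812, 785 and 704 CPM, Scd2 was called lower under isotype at 4 h (-0.37) and 12 h (-0.44), and the 4 h call was lost without untreated replicate 1 (adjusted p = 0.055) or isotype replicate 1 (0.0589). Scd1, its neighbour and close relative, was at 89.3, 77.9 and 72.1 CPM under FcMR and 101, 113 and 96.2 under isotype at 4 h, 50.7, 43.6 and 47.7 and 83.2, 79.8 and 80.2 at 12 h, and 96.6, 95.03 and 103 and 101, 90.9 and 105 at 24 h. All FcMR libraries were below isotype at 4 and 12 h, and the groups overlapped at 24 h. Scd1 had 941, 2072 and 1045 counts in the untreated libraries and was not called against untreated. The differences of Scd1 were -0.37 ± 0.09 (SE, adjusted p = 0.00718), -0.78 ± 0.09 (SE, adjusted p = 7.44e-06) and -0.01 ± 0.09 (SE, adjusted p = 0.959). The 4 h call of Scd1 was lost without FcMR replicate 3 (-0.26, adjusted p = 0.154) or isotype replicate 2 (-0.27, 0.0911). Correction by the median GC content of its transcripts took its 4 and 12 h differences to -0.54 ± 0.25 and -0.52 ± 0.25 (SE, adjusted p = 0.126 and 0.148). With the GC content of the longest coding transcript they were -0.26 ± 0.08 and -0.81 ± 0.08 (adjusted p = 0.0251 and 4.95e-07). The joint test of the FcMR difference over time gave adjusted p = 0.00957 for Scd2 and 0.00218 for Scd1. The joint call of Scd1 was lost with the correction by median GC content (adjusted p = 0.197, and 0.168 with the replicate block) and held with that by the longest coding transcript (0.000314). The paralogs can share reads, so the split between them is uncertain.

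Fads1, which makes highly unsaturated fatty acids, fell under FcMR at 4 h and rose with time under both proteins. It was at 59.95, 60.1 and 45.8 CPM untreated, 57.3, 57 and 53.1 under isotype at 4 h, 74.8, 83.5 and 81.1 at 12 h and 127, 123 and 124 at 24 h, and the last 2 groups differed from untreated by 0.53 ± 0.09 (SE, adjusted p = 0.000182) and 1.17 ± 0.09 (SE, adjusted p = 1.81e-08). Under FcMR it was at 32.4, 31.03 and 29.1 CPM at 4 h, 53.6, 57.7 and 62.5 at 12 h and 106, 105 and 113 at 24 h. The FcMR libraries lay below the isotype libraries at every time, by -0.85 ± 0.10 (SE, adjusted p = 8.61e-06), -0.46 ± 0.09 (SE, adjusted p = 0.00176) and -0.21 ± 0.09 (SE, adjusted p = 0.137). Its joint adjusted p over time was 0.0107, and 0.0747 without FcMR 4 h replicate 3. The 5 genes with a joint call, Me1, Scd1, Scd2, Acat2 and Fads1, were 5 of 35, beside 11% of all genes. Without FcMR 4 h replicate 3, 3 were called (7.83% of all genes), 8 without FcMR 24 h replicate 2 (10%) and 9 without isotype 4 h replicate 3 (16.4%). Fads2, its partner on the same chromosome, was at 19.2, 15 and 10.6 CPM untreated, 36.2, 28.7 and 39.5 under isotype at 4 h, 27.03, 26.8 and 25.2 at 12 h and 27.7, 27.9 and 24.8 at 24 h. It was called higher than untreated at each time (1.23, 0.82 and 0.85). At 4 h its FcMR libraries, at 35.98, 32.9 and 33.9 CPM, overlapped those of isotype (-0.03 ± 0.20, SE, adjusted p = 0.955). Under FcMR at 12 h it was at 14.3, 17.9 and 19.9 CPM (-0.60 ± 0.20, SE, adjusted p = 0.0454), a call lost without any library but FcMR replicate 3 (adjusted p = 0.0805 to 0.18).

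Elovl6, which elongates palmitate, was at 9.99, 7.56 and 8.57 CPM under FcMR and 17.1, 23.5 and 12.2 under isotype at 4 h, the largest difference of the 35 genes at that time (-1.01 ± 0.20, SE, adjusted p = 0.00167). The groups did not overlap, and the call held without any 1 library but not in a fit of the compared libraries alone (adjusted p = 0.0688). Against untreated libraries of 11.7, 13.3 and 11.4 CPM it was lower at 12 h, at 5.44, 6.16 and 4.94 CPM (-1.16 ± 0.20, SE, adjusted p = 0.000134), and at 24 h, at 7.26, 7.61 and 8.62 CPM (-0.64 ± 0.20, SE, adjusted p = 0.0153). The 24 h call was lost without untreated replicate 2 (adjusted p = 0.0601) or isotype replicate 1 (0.0871) or 2 (0.0722). At 4 h its isotype libraries overlapped the untreated ones, and the call (0.52 ± 0.19, SE, adjusted p = 0.0464) was lost without any library but isotype replicate 3, with 0.23 and an adjusted p of 0.405 without isotype replicate 2.

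Fasn, the synthase that assembles palmitate, was at 218, 139 and 162 CPM untreated, 83.7, 46.2 and 193 under isotype at 4 h, 101, 93.6 and 93.7 at 12 h and 47.2, 45.99 and 45.6 at 24 h. The 24 h libraries were below all untreated ones (-1.90 ± 0.44, SE, adjusted p = 0.00206), and the 4 h libraries again spread with the tilt score. In FcMR libraries Fasn was at 109, 121 and 104 CPM at 4 h, 34.9, 84.3 and 96.9 at 12 h and 27.8, 15.8 and 47.7 at 24 h. The differences from isotype were 0.04 ± 0.43 (SE, adjusted p = 0.968), -0.42 ± 0.43 (SE, adjusted p = 0.628) and -0.63 ± 0.44 (SE, adjusted p = 0.377). The fall from isotype 4 h to 24 h (-1.23 ± 0.44, SE, adjusted p = 0.0343), between groups that overlapped, was -0.46 without isotype 4 h replicate 3 (adjusted p = 0.369) and was not called without any 1 of the 24 h libraries (0.0935 to 0.0998). Acly, which makes acetyl-CoA from citrate, was called lower than untreated at 24 h (-0.51 ± 0.11, SE, adjusted p = 0.00108). Acaca, the carboxylase that commits acetyl-CoA to fatty acids, was called higher at 4 h (0.55 ± 0.08, SE, adjusted p = 4.29e-05). Neither was called under FcMR at any time without correction for GC content.

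Between 4 and 24 h, the fatty acid set had 2 called higher and 5 lower under isotype (median -0.41) and 4 higher and 3 lower under FcMR (median -6.08e-05), beside 39% and 49.6% of all genes called. Fads1 rose in both, by 1.16 ± 0.10 and 1.81 ± 0.10 (SE). Scd2 rose by 0.42 ± 0.11 under isotype and 1.16 ± 0.11 under FcMR, where its 4 h level had been low. Me1 rose under FcMR (0.97 ± 0.12, SE, adjusted p = 2.58e-06), and its isotype value was -0.29 ± 0.12 (SE, adjusted p = 0.0743). The Fasn fall was -1.90 ± 0.45 (SE, adjusted p = 0.00183) under FcMR. Acss2 fell under isotype (-0.43), a call lost without isotype 4 h replicate 1 (adjusted p = 0.0705) or 3 (0.0509) or isotype 24 h replicate 1 (0.0901), and Scd1 rose under FcMR (0.30), a call lost without FcMR 4 h replicate 3 (0.118).

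Among the 35 genes 20 overlap another annotated gene, 9 of them a protein-coding one. Overlap was counted over whole gene spans, introns included, and shared exons were not checked. The library kit does not mark strand, so any shared reads cannot be told apart by strand. Mvd, Fdps, Ggps1, Fdft1, Cyp51, Tm7sf2, Srebf1, Acss2 and Acaca are the 9 that overlap a protein-coding gene.

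Genes around the pathway were taken from 6 further lists. Their counts stand beside 8.62%, 8.61% and 11.4% of all genes called higher and 9.13%, 7.49% and 9.44% called lower under FcMR at 4, 12 and 24 h, and 20.4%, 22% and 21.3% higher and 15.2%, 19.6% and 20.9% lower under isotype against untreated. Of 8 genes that cleave the Srebf precursors or degrade Insig and its partners, 2, 1 and 0 were called higher under FcMR at 4, 12 and 24 h and 0 lower, and 3, 1 and 0 were called higher and 0, 0 and 1 lower against untreated. The 1 was Mbtps1, the first protease of that cleavage (-0.28 ± 0.10, SE, adjusted p = 0.0278). Of 9 genes of uptake, hydrolysis and esterification of cholesterol, 0 were called higher and 3, 4 and 5 lower under FcMR (medians -0.18, -0.51 and -0.70). The 3 at 4 h were Lipa and Nceh1, which hydrolyse cholesteryl esters, and Soat1, which makes them. They were called again at both later times, and the receptors Cd36, at 12 and 24 h, and Msr1, at 24 h, made up the rest. Lipa, Nceh1 and Soat1 were picked out after their values were seen, with differences at 24 h of -0.82, -1.09 and -0.70. Against untreated, 4, 5 and 6 of the 9 were higher and 2, 1 and 1 lower, Vldlr among the lower each time. Cd36, a scavenger receptor, was at 934, 1171 and 725 CPM under FcMR and 2227, 2298 and 2328 under isotype at 24 h (-1.28 ± 0.15, SE, adjusted p = 5.35e-06). Msr1, another scavenger receptor, was at 592, 717 and 510.1 and 876, 827 and 893 CPM (-0.51 ± 0.13, SE, adjusted p = 0.00798) and was higher than untreated by 1.77 ± 0.13 (SE, adjusted p = 8.07e-09) under isotype. Vldlr, a lipoprotein receptor, had 16, 34 and 23 counts untreated and 4, 1 and 1 under isotype at 24 h, too few in the later libraries for its fitted fold to be given.

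Genes of oxysterols and of the sterol-sensing nuclear receptor LXR went in both directions. Of 9 tested, 1, 1 and 1 were called higher and 0, 1 and 1 lower under FcMR. The gene called higher was Ch25h at 4 h (1.71) and 12 h (1.72) and Abca1 at 24 h. Ch25h was picked out after its values were seen. Abca1, the cholesterol export pump and an LXR target, was at 744, 797 and 799 CPM under FcMR and 314, 302 and 369 under isotype at 24 h (1.25 ± 0.10, SE, adjusted p = 9.29e-08). Cyp27a1, which makes an oxysterol, was at 1.44, 1.69 and 2.19 and 4.71, 4.93 and 4.12 CPM (-1.38 ± 0.21, SE, adjusted p = 9.65e-05). Mylip, an LXR target that degrades lipoprotein receptors, was higher than untreated at 24 h under isotype (0.85 ± 0.08, SE, adjusted p = 2.26e-07). Against untreated, 2, 4 and 2 of the 9 were higher and 4, 1 and 0 lower.

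Of 10 genes of the isoprenoid branch, which uses the same precursors for prenylation and ubiquinone, 1 was called lower under FcMR at 4 h and none at 12 or 24 h, where 0 were higher as well. Against untreated, 4, 2 and 2 were higher and 0, 0 and 1 lower. At 24 h Coq2, of ubiquinone synthesis, differed by 0.61 ± 0.10 (SE, adjusted p = 0.00011), Fntb, a farnesyltransferase subunit, by -0.58 ± 0.22 (SE, adjusted p = 0.0461), and Rabggtb, a prenyltransferase subunit for Rab proteins, by 0.31 ± 0.10 (SE, adjusted p = 0.0229).

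Of 18 further genes of fatty acid activation, elongation and esterification, 3, 5 and 4 were called higher and 3, 3 and 2 lower under FcMR, and 5, 4 and 6 higher and 7, 4 and 4 lower against untreated. Acsl1, which activates long-chain fatty acids, was at 1171, 1213 and 1068 CPM under FcMR and 116, 115 and 119.7 under isotype at 24 h (3.30 ± 0.10, SE, adjusted p = 1.42e-13). Dgat2, which makes triglyceride, was at 44.1, 33.8 and 63.5 and 3.63, 4.29 and 5.15 CPM (3.44 ± 0.29, SE, adjusted p = 8.74e-08). In each gene all FcMR libraries lay above all isotype libraries. Lpin1, a phosphatidate phosphatase, was lower than untreated under isotype at 24 h (-2.61 ± 0.15, SE, adjusted p = 3.03e-10) and lower again under FcMR (-0.45 ± 0.15, SE, adjusted p = 0.0425). Of 13 genes of fatty acid oxidation, 2, 0 and 0 were called higher and 2, 2 and 1 lower under FcMR, where 17.7%, 16.1% and 20.9% of all genes were called, and 2, 4 and 4 higher and 4, 4 and 2 lower against untreated. At 24 h Eci1 and Decr1, which handle unsaturated fatty acids, were 0.57 and 0.51 above untreated and Slc25a20, the carnitine carrier, was at -0.49, all called.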

How the data were processed

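RNA for the 21 libraries was prepared with a TruSeq RNA v2 kit and sequenced as single reads, per the labels' protocols; that kit does not mark strand. The authors deposited a table of estimated counts, already whole numbers, and a normalised signal table. The submitters' processing notes name CASAVA 1.8.2, kallisto 0.44.0, DESeq2 and the builds mm10 and GRCm38, without saying which step used which. The estimated counts of the deposited table were tested. The deposited signal table was used for the authors' scaling factors alone, as an alternative.

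Gene identifiers were matched to symbols, positions and transcript GC content through GENCODE M21 (GRCm38), where 23187 of 23250 matched. Genes were filtered with edgeR's filterByExpr (minimum count 10), leaving 13468. A single edgeR 4.0.16 quasi-likelihood fit (R 4.3.3) of 7 group means with TMM factors gave every contrast and the joint test of the FcMR difference over the 3 times, with Benjamini-Hochberg adjustment over all genes tested and a threshold of 0.05. The model was tested on simulated data with the same dispersion for every gene and no GC tilt, unlike the libraries here. The estimated counts are read numbers without molecular identifiers, so SE and intervals (95%) cover the spread between libraries.

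The 35 genes and all further lists were chosen with earlier results of these data known. Values in every library are given for 12 set genes (Insig1, Srebf1, Srebf2, Hmgcs1, Sqle, Idi1, Stard4, Fasn, Scd1, Scd2, Acss2 and Me1) and for up to 3 called genes per set and comparison with the largest change. From each further list up to 3 called genes with the largest change at 24 h are named. Lipa, Nceh1, Soat1 and Ch25h are named in addition.

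Alternatives were DESeq2 1.42.0, limma voom (3.58.1), RLE factors, testing every gene, keeping genes with 10 or more counts on average, a replicate block, a correction for median transcript GC content (lowess curve per library, span 0.3) alone and with the block, the authors' factors, the compared groups alone, leaving out both libraries whose titles break the order of the series, and leaving out each library. A correction by the GC content of the longest coding transcript, alone and with the block, was added after seeing the data, because the planned correction widened the spread of Scd1: its dispersion was 0.0072 without correction, 0.0454 with the median and 0.0052 with the longest coding transcript. Replicates of a group correlated at 0.92 to 0.987 (Pearson's r over genes), and no 2 libraries agreed within sampling noise.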

Additional observations from a re-analysis of the deposited data

Results flagged for a closer look

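The difference between FcMR and isotype was not the same at 4, 12 and 24 h for 5 of the 35 genes, by the joint edgeR quasi-likelihood test of that difference over the 3 times. Me1 had an adjusted p of 0.000294 and moved from 0.04 at 4 h to 1.29 at 24 h on the log2 scale. Scd1 had an adjusted p of 0.00218, and its difference was -0.37, -0.78 and -0.01 at the 3 times. It was not called with the correction by median GC content (adjusted p = 0.197). Scd2 had an adjusted p of 0.00957, and went from -0.79 at 4 h to -0.49 and -0.04. Acat2 had an adjusted p of 0.00991, with -0.46 at 4 h and 0.27 at 12 h. Fads1 had an adjusted p of 0.0107, with -0.85 at 4 h and -0.21 at 24 h. All genes together had 11% called by this test.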

How the results depend on the processing

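Of 146 called differences of the 35 genes, 102 stayed called under every alternative that kept all libraries or left out the pair with titles out of order, 97 of them also without any single library, and 0 reversed. The authors' factors and the fit of the compared groups alone lost 28 each, no filter 25, RLE factors 5, DESeq2 4 and limma voom 6. The mean correlation of same-numbered libraries was -0.107 to 0.106. Single values ran from -0.184 to 0.338, so whether the replicate numbers pair the samples was not settled. The replicate block lost 2, Fads2 under FcMR at 12 h (adjusted p = 0.0546) and Elovl6 under isotype at 4 h (0.0542). Genes called under FcMR at 4 h numbered 10, and 5 without the filter, 5 with the authors' factors, 3 in the compared groups alone, 17 without both libraries out of order (sterol set 1 higher and 9 lower; 28.3% of all genes called) and 5 to 16 without single libraries. At 12 h they numbered 11, and 7 without the filter, 5 with the authors' factors, 7 in the compared groups, 17 with the longest-transcript GC correction and replicate block, and 7 to 8 without single libraries. At 24 h they numbered 6, and 11 with either GC correction or the median one with the block, 12 with the longest-transcript one with the block, 2 in the compared groups and 3 to 7 without single libraries. Under isotype at 4 h they numbered 19, and 12 without the filter, 12 with the authors' factors, 10 in the compared groups and 12 to 21 without single libraries. The joint calls numbered 5, and 2 without the filter, 9 with the GC correction with or without the block, 10 with its other form with or without the block, 9 without both libraries and 3 to 9 without single libraries. The sterol median under FcMR at 4 h, -0.18, was -0.105 with RLE factors, -0.0698 without the filter, -0.103 with DESeq2, -0.107 with the GC correction with or without the block, -0.0797 with the authors' factors and -0.207 to -0.103 without single libraries. The sterol median under isotype at 4 h, 0.35, was 0.244 without the filter, 0.257 and 0.266 with the GC correction without and with the block, 0.261 and 0.269 with its other form, 0.249 with the authors' factors, 0.251 without both libraries and 0.25 to 0.352 without single libraries. At 12 h it was -0.638 with the longest-transcript correction, -0.652 with the authors' factors and -0.638 to -0.528 without single libraries. From 4 to 24 h the sterol median under isotype was -1.33 without the filter, -1.36 with the GC correction with or without the block, -1.39 with its other form with or without the block and -1.37 with the authors' factors. Under FcMR it was -1.39 with limma voom and -1.46 to -1.2 without single libraries. The fatty acid median under FcMR at 4 h was -0.00705 without the filter and -0.271 to -0.0782 without single libraries, and under isotype at 4 h 0.245 without the filter and 0.225 to 0.432 without single libraries. From 4 to 24 h it was, under isotype, -0.278 without the filter, -0.532 and -0.535 with the longest-transcript correction without and with the block, -0.295 without both libraries and -0.445 to -0.293 without single libraries, and under FcMR -0.234 with the authors' factors and -0.129 to 0.144 without single libraries. Over all genes, calls under FcMR at 4 h went from 2390 to 868 in the compared groups, 3756 and 3813 with the 2 GC corrections, 3948 and 3999 with the block added, 3898 without both libraries and 1589 without FcMR replicate 2. At 12 h they went from 2169 to 3373 and 3512 with the GC corrections and to 3580 and 3699 with the block, at 24 h from 2813 to 4262 with the longest-transcript correction and block, and under isotype at 4 h from 4792 to 2881 in the compared groups. Joint calls went from 1484 to 925 without the filter, 2990 and 3095 with the GC corrections, 3216 and 3325 with the block, 1001 with the authors' factors, 2616 without both libraries, 973 without FcMR 4 h replicate 2 and 2294 without isotype 4 h replicate 3. Depth was lowest for Tm7sf2, with 34 counts in its shallowest library. The GC corrections lowered the dispersion over all genes, and the cause of the other shifts was not tested.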
